A study of Mus musculus with 22 samples.

Results

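The replication-dependent histone genes were followed in mouse embryonic fibroblasts (MEFs) passaged with and without the ribosomal S6 kinases. Members were all genes of the count table whose Ensembl identifier maps to a mouse symbol beginning with Hist1h, Hist2h, Hist3h or Hist4h. The name table holds 70 such symbols, of which 58 had a row among the 55401 genes of the table. The other 12 symbols had no matching identifier and were not analysed here. The counts by type and the histone share of counts leave them out. By symbol, 6 members belong to the linker histone H1, 18 to H2A, 15 to H2B, 7 to H3 and 12 to H4. These counts include 3 genes that GENCODE vM1 annotates as pseudogenes, *Hist1h2aj* (H2A), *Hist3h2bb-ps* (H2B) and *Hist2h3c2* (H3), of which only *Hist2h3c2* had enough counts to be tested. RefSeq names these 3 genes *H2ac14*, *H2bu1-ps* and *H3c15*, so of the 3 only *Hist3h2bb-ps* has a pseudogene symbol there. RefSeq also gives *Hist1h2al* (H2A) a pseudogene symbol, *H2af-ps2*. By symbol, the 58 members belong to cluster 1 on chromosome 13 (45 members), cluster 2 on chromosome 3 (10 members) and cluster 3 on chromosome 11 (3 members). *Hist1h2al*, at chr13:51298057-51298434 in mm9, lies far from the other members of cluster 1.

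The 22 poly(A)-selected RNA-seq libraries came from C57BL/6 MEFs, which are fibroblast cultures made from embryos. In the *S6K1* set, 4 libraries were of early WT MEFs at passage 3, 4 of late WT MEFs at passage 8 and 3 of late *S6K1* KO MEFs at passage 8. In the *S6K1/S6K2* set, 4 libraries were of early WT MEFs at passage 3, 4 of late WT MEFs at passage 8 and 3 of late DKO MEFs, which lack both kinases, also at passage 8. All MEFs were serially passaged in atmospheric oxygen, and neither set has early KO or DKO libraries. *S6K1* WT and KO MEFs were littermates, whereas DKO MEFs had as controls WT MEFs taken from WT mothers earlier in the breeding, so genotype and litter cannot be told apart in that comparison. The labels name no embryo or culture for each library, so P values measure the spread between these samples. Replicate numbers follow the order of the library codes in the labels and match no libraries between groups.

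Core histones H2A, H2B, H3 and H4 form the nucleosome, and H1 binds the DNA that enters and leaves it. Proliferating cells make most of this protein in S phase from clustered, intronless genes, often arranged as H2A and H2B pairs transcribed in opposite directions from a shared promoter. Their mRNAs characteristically end in a conserved stem-loop bound by the protein SLBP instead of a poly(A) tail. Several of these genes can also give a longer, polyadenylated transcript that runs past the stem-loop, a form known from differentiating and non-dividing cells. Poly(A) selection favours this second form, so the levels given here do not stand for total histone mRNA.

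The stem-loop is shown first because it marks the 3′ end that distinguishes these mRNAs. In the GENCODE vM1 annotation (NCBIM37, mm9), 37 of the 47 members with a searchable region after the stop codon carried a 16-base element of the form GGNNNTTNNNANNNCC whose inner 3 bases on each side can pair. The same element occurred in 48 of 19854 other genes (0.242%). The sequences are written 5′ to 3′ on the strand of the gene, with the stem-loop in capitals and 5 flanking bases on each side.

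*Hist1h1c* (H1): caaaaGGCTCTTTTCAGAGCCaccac
*Hist1h1d* (H1): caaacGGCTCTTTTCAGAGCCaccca
*Hist3h2a* (H2A): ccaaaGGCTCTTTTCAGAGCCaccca
*Hist1h2ac* (H2A): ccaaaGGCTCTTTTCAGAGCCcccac
*Hist1h2be* (H2B): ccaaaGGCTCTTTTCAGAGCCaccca
*Hist1h3b* (H3): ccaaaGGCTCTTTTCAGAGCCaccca
*Hist1h4i* (H4): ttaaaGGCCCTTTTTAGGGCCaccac
*Hist1h4h* (H4): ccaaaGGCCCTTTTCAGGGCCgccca

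These stretches lie at chr13:23831376-23831401 for *Hist1h1c*, chr13:23647651-23647676 for *Hist1h1d*, chr11:58768669-58768694 for *Hist3h2a* and chr13:23775341-23775366 for *Hist1h2ac*. Those of *Hist1h2be*, *Hist1h3b*, *Hist1h4i* and *Hist1h4h* lie at chr13:23677395-23677420, chr13:23844684-23844709, chr13:22132830-22132855 and chr13:23623322-23623347. The printed H1, H2A, H2B and H3 genes carried 1 identical 16-base element, whereas those of the 2 H4 genes differed from it. All 8 elements began 25 to 42 bases after the stop codon. No such element was found in the annotated transcript after the stop codon of *Hist1h2bc* (322 bases) or of *Hist2h2be* (2192 bases). The *Hist1h2bc* gene spans chr13:23776068-23784357, but its annotated transcript holds only 736 bases, so most of the span lies outside it. Sequence outside annotated transcripts was not searched, so a stem-loop there would have been missed.

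How far the annotated transcript ran past the stem-loop varied widely among members. It ran 3050 bases past it in *Hist1h1d*, 2010 in *Hist1h2ac*, 1789 in *Hist1h2be*, 1487 in *Hist3h2a*, 839 in *Hist1h1c* and 150 in *Hist1h4i*, but only 51 in *Hist1h3b* and 46 in *Hist1h4h*. Of the 15 members with more than 100 bases past the stem-loop, 9 had enough reads to be tested, as had 4 of the 22 members with 100 bases or fewer. On the CPM scale, the counts of a gene per 1000000 counts of its library, per kb of transcript, averaged over the 22 libraries, the median level was 0.854 (0.0430 to 152) for the first kind and 0.237 (0.00732 to 21.2) for the second. These levels are a description across genes, which share libraries and, in part, sequence.

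**Figure D1:**
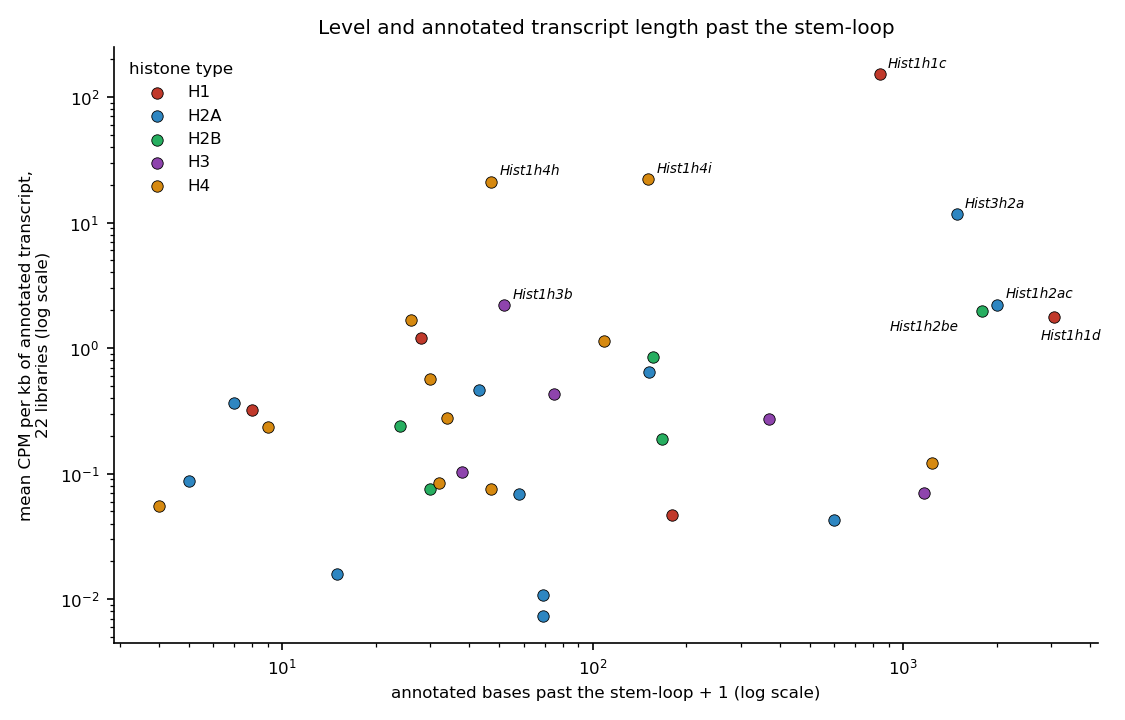
Each point is 1 of the 37 histone genes with a stem-loop, coloured by histone type. The x axis gives the annotated bases past the stem-loop plus 1 and the y axis the mean CPM per kb over the 22 libraries, both on log scales. *Hist1h1c* stands highest, at 152 CPM per kb with 839 bases past the stem-loop, and *Hist1h4h* reached 21.2 CPM per kb with 46 bases.

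Promoters of 5 members are shown, 2 of H1, 2 of H2A and 1 of H4 genes, as RefSeq gives them on GRCm38.p6, to show how the motifs differ between types. *Hist1h2bc* had no entry in the promoter table. Each stretch is the 130 bases before the transcription start, on the strand of the gene. Capitals mark matches on either strand to CCAAT, to the TATA-like TATAAA or TATATA (overlapping matches merged), to AAACACA, a box known from H1 promoters, and to ATTTGCAT, the octamer bound by POU2F1 (read as ATGCAAAT on the other strand).

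*Hist1h1c*, chr13:23738677-23738806, plus strand: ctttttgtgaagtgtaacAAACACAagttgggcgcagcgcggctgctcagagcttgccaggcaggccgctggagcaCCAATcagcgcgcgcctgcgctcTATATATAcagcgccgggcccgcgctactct
*Hist1h1d*, chr13:23554902-23555031, plus strand: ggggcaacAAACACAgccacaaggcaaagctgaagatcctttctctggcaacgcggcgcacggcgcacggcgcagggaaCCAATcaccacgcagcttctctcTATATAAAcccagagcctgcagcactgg
*Hist1h2ac*, chr13:23683960-23684089, minus strand: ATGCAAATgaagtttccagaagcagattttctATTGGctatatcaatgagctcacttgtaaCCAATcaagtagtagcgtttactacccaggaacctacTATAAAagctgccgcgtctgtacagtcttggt
*Hist3h2a*, chr11:58954555-58954684, plus strand: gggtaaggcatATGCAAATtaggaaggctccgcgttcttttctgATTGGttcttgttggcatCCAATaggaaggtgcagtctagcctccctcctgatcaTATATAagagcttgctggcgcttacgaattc
*Hist1h4i*, chr13:22041363-22041492, minus strand: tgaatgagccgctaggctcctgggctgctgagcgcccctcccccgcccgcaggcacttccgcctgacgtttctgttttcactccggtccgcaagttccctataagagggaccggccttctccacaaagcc

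In the whole 300-base windows (250 bases before to 50 after the start), 51 members had a RefSeq entry. The H1 box AAACACA stood in 5 of the 6 H1 genes, including all 4 tested ones, in 2 of 16 H2A and 1 of 12 H2B genes, in no H3 or H4 gene, and in 7.18% of all 32851 promoters. The octamer stood in 7 of 16 H2A and 6 of 12 H2B genes, in no H1, H3 or H4 gene, and in 1.74% of all promoters. CCAAT was found in 43 of the 51 members and 37.4% of all promoters, with only 3 of the 11 H4 genes among them. TATAAA was found in 31 members, among them 8 of the 11 H4 genes, and in 13.6% of all promoters. TATATA was found in 13 members, among them 3 H4 genes, and in 5.67% of all promoters. *Hist1h4i* had no match in the printed stretch, but its 300-base window held both TATAAA and TATATA. In mm9, 9 pairs of members started within 500 bases of each other in opposite directions, and each pair joined an H2A to an H2B gene. *Hist1h2ac* and *Hist1h2bc*, 250 bases apart, were 1 of the 2 pairs with both genes tested.

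The libraries held 10742454 to 17314832 counts, of which the histone genes took 0.0143 to 0.0957%. A count of 0 allows a level of up to 0.173 to 0.279 CPM (3 counts of the library total, for counting error only). *Rps6kb1*, which encodes S6K1, fell by 1.68 (SE 0.19) on the log2 scale in late KO against late WT MEFs (edgeR quasi-likelihood test, adjusted P = 0.00744) and by 1.64 (SE 0.15) in late DKO MEFs (adjusted P = 0.000716). *Rps6kb2*, which encodes S6K2, fell by 3.95 (SE 0.32) in late DKO MEFs (adjusted P = 0.00038). The 10 fibroblast markers summed to 30084 to 34627 CPM in early WT, 18759 to 27544 in late WT and 22104 to 26014 in late KO MEFs of the *S6K1* set. They summed to 30570 to 41959 (early WT), 20598 to 27550 (late WT) and 23932 to 29624 CPM (late DKO) in the *S6K1/S6K2* set. In each set every late WT sum lay below every early WT sum. Of the 10 markers, 1 fell with passage in the *S6K1* set and 2 in the *S6K1/S6K2* set. In late DKO MEFs 1 rose, and in late KO MEFs 0 passed (2 at an unadjusted P under 0.05, 2 with DESeq2). The 4 Y-linked genes summed to 211 to 312 CPM in 12 libraries and to 0.75 CPM or less in the other 10, and the groups were not balanced. The 12 were 2 of 4 early WT, 1 of 4 late WT and 3 of 3 late KO libraries of the *S6K1* set, and 2 of 4 early WT, 3 of 4 late WT and 1 of 3 late DKO libraries of the *S6K1/S6K2* set. None of the 4 genes passed in any comparison (0 at an unadjusted P under 0.05 with edgeR, 0 with DESeq2). The macrophage markers *Csf1r* and *Ptprc* were at 11 and 1.65 CPM or more in every library. All 19 macrophage markers summed to 438 to 1175 CPM in early WT, 5229 to 11076 in late WT and 3646 to 4561 in late KO MEFs of the *S6K1* set. They summed to 645 to 2043 (early WT), 7862 to 13091 (late WT) and 975 to 3309 CPM (late DKO) in the *S6K1/S6K2* set, so macrophage markers moved with both passage comparisons.

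Of the 58 histone genes, 17 reached 10 counts in at least 3 libraries and were tested among 14991 genes. Only 7 of them reached 10 counts in all 22 libraries. *Hist1h1b* was just inside this limit, with 10 or more counts in 3 libraries, and *Hist1h2af* just outside it, with 2. Of the 41 others, 36 had at least 1 count and 5 were at 0 in all libraries, and together they held 0.706% of the counts on histone genes. By type, 4 of 6 H1, 3 of 18 H2A, 4 of 15 H2B, 2 of 7 H3 and 4 of 12 H4 genes were tested.

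The linker histone gene *Hist1h1c* and the H2B gene *Hist1h2bc* dominated. Together they held 78.5 to 88.49% of the histone counts of a library (median 84.95%). Over all libraries *Hist1h1c* had 46.2% of them and *Hist1h2bc* 38.4%, followed by *Hist3h2a* with 4.49%, *Hist1h4i* with 2.25% and *Hist1h4h* with 1.88%. Per kb of annotated transcript, the order of the mean levels was *Hist1h2bc* (269 CPM per kb), *Hist1h1c* (152), *Hist1h4i* (22), *Hist1h4h* (21.2) and *Hist3h2a* (11.7). Reads from near-identical copies may be split between members or left uncounted. Of the 50-base stretches, 47.3% of those of *Hist1h2bc*, 45.8% of *Hist1h4h*, 40.2% of *Hist1h4i* and 34.0% of *Hist3h2a* recurred in another gene. The share was 8.54% for *Hist1h1c* and 4.32% for *Hist1h1d*. Among members at 0 in all libraries it was 100% for *Hist1h2bq*, 97.8% for *Hist1h2br*, 38.2% for *Hist1h2ba* and 2.35% for *Hist1h2aa*. A low count of a highly shared member therefore need not mean little RNA. *Hist3h2a* also overlaps *Trim17* on its strand, and *Hist1h2be* overlaps *Gm11398*.

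In the *S6K1/S6K2* set, histone genes of the H1, H2A, H2B and H4 types were higher in late than in early WT MEFs. The test was passed by 8 of the 17 tested members, all higher: *Hist1h1c*, *Hist1h1d*, *Hist1h2ac*, *Hist3h2a*, *Hist1h2bc*, *Hist1h2be*, *Hist1h4i* and *Hist1h4h*. Of all genes tested, 7.99% passed as higher in this comparison (edgeR quasi-likelihood test, adjusted P under 0.05). The median log2 fold change over the 17 members was 1.54, with a range of -0.17 to 2.22, against 0.01 over all genes tested. Late libraries all exceeded early ones for 8 members, beside 9.84% of all genes tested. These are not the same 8 as those that passed. *Hist2h3c2* and *Hist1h4d* did not overlap but missed the threshold, whereas *Hist1h2be* and *Hist1h4h* passed but overlapped. In bulk samples, fewer cells of a type and less RNA per cell cannot be told apart.

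The linker histone *Hist1h1c* (chr13:23830676-23832235 in mm9, plus strand) measured 108, 81.6, 148 and 171 CPM in the 4 early WT libraries, and 326, 373, 333 and 375 CPM in the 4 late WT libraries. Every late library stood well above every early one. The fitted fold was 2.91 (log2 fold change 1.54, SE 0.21, adjusted P = 0.00103), and the group means were 127 ± 40.1 and 352 ± 25.9 CPM (SD, n = 4 each). The other linker histone that passed, *Hist1h1d* (chr13:23646901-23650721, plus strand), measured 1.77, 1.76, 2.78 and 4.6 CPM in early and 11.5, 9.41, 12.1 and 11.3 CPM in late WT libraries. Its groups did not overlap either, and its fold was 4.25 (log2 fold change 2.09, SE 0.29, adjusted P = 0.0011).

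*Hist1h4i* and *Hist1h4h*, 2 of the 4 tested H4 genes, rose by more than 4-fold. *Hist1h4i* (chr13:22132685-22133221, minus strand) measured 3.36, 1.70, 3.51 and 5.73 CPM in early and 12.8, 18.7, 18.6 and 11.1 CPM in late WT libraries. Its groups were fully apart, with a fold of 4.52 (log2 fold change 2.18, SE 0.37, adjusted P = 0.00367). *Hist1h4h* (chr13:23622919-23623388, plus strand) measured 1.28, 0.98, 2.98 and 6.60 CPM in early and 10.1, 12.1, 20.4 and 6.31 CPM in late WT libraries. Here the highest early library stood above the lowest late one, and the log2 fold change of 2.12 (SE 0.60) had an adjusted P of 0.0423.

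Among the H2B genes, *Hist1h2bc* (chr13:23776068-23784357, plus strand) measured 56.5, 42.7, 109 and 122 CPM in early and 273, 239, 332 and 158 CPM in late WT libraries. All late values exceeded all early ones, with a log2 fold change of 1.67 (SE 0.38, adjusted P = 0.0177). *Hist1h2be* (chr13:23675611-23712993, minus strand) measured 1.28, 0.522, 2.51 and 3.73 CPM in early and 9.32, 3.44, 5.54 and 7.39 CPM in late WT libraries. Its groups overlapped in 1 pair of values, and the log2 fold change was 1.73 (SE 0.49, adjusted P = 0.038). *Hist2h2be*, the H2B gene of cluster 2, did not pass (log2 fold change 0.46, adjusted P = 0.511).

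The H2A gene *Hist3h2a* (chr11:58768187-58770176, plus strand) measured 6.85, 7.77, 19.8 and 14.6 CPM in early and 23.6, 29.7, 33.4 and 21.2 CPM in late WT libraries. The groups did not overlap, although the highest early and the lowest late library lay close, and the log2 fold change was 1.21 (SE 0.34, adjusted P = 0.039). *Hist1h2ac*, whose start lies beside that of *Hist1h2bc*, ranged from 0.718 to 3.47 CPM in early and from 6.51 to 9.60 CPM in late WT libraries (log2 fold change 1.99, SE 0.43, adjusted P = 0.0117). The H3 members did not pass. *Hist2h3c2*, *H3c15* in RefSeq but a pseudogene with no coding transcript in GENCODE vM1, had the largest log2 fold change of the 17 members. It was 2.22 (SE 0.68, adjusted P = 0.0552), and its late libraries all exceeded its early ones. The H3 gene *Hist1h3b* had a log2 fold change of 0.66 (adjusted P = 0.567).

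The early WT libraries of this set spread more than the late ones for *Hist1h1c*, with replicates 1 and 2 lowest. These replicates were also the lowest early WT libraries for each other member that passed, though not for every tested member. Their summed histone levels were 186 and 143 CPM, against 302 and 348 CPM in replicates 3 and 4. Early WT libraries of the *S6K1* set held 303 to 360 CPM. A fit without both low replicates is not given here, so their joint part in the calls was not tested. Single libraries decided several calls. Without early WT replicate 1 or late WT replicate 3, 4 members passed (*Hist1h1c*, *Hist1h1d*, *Hist1h2ac* and *Hist1h4i*), and 5 passed without early WT replicate 2 or late DKO replicate 1 (these 4 and *Hist1h2bc*). With the Y-linked genes as a covariate these same 5 passed, and *Hist3h2a*, *Hist1h2be* and *Hist1h4h* did not.

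**Figure D2:**
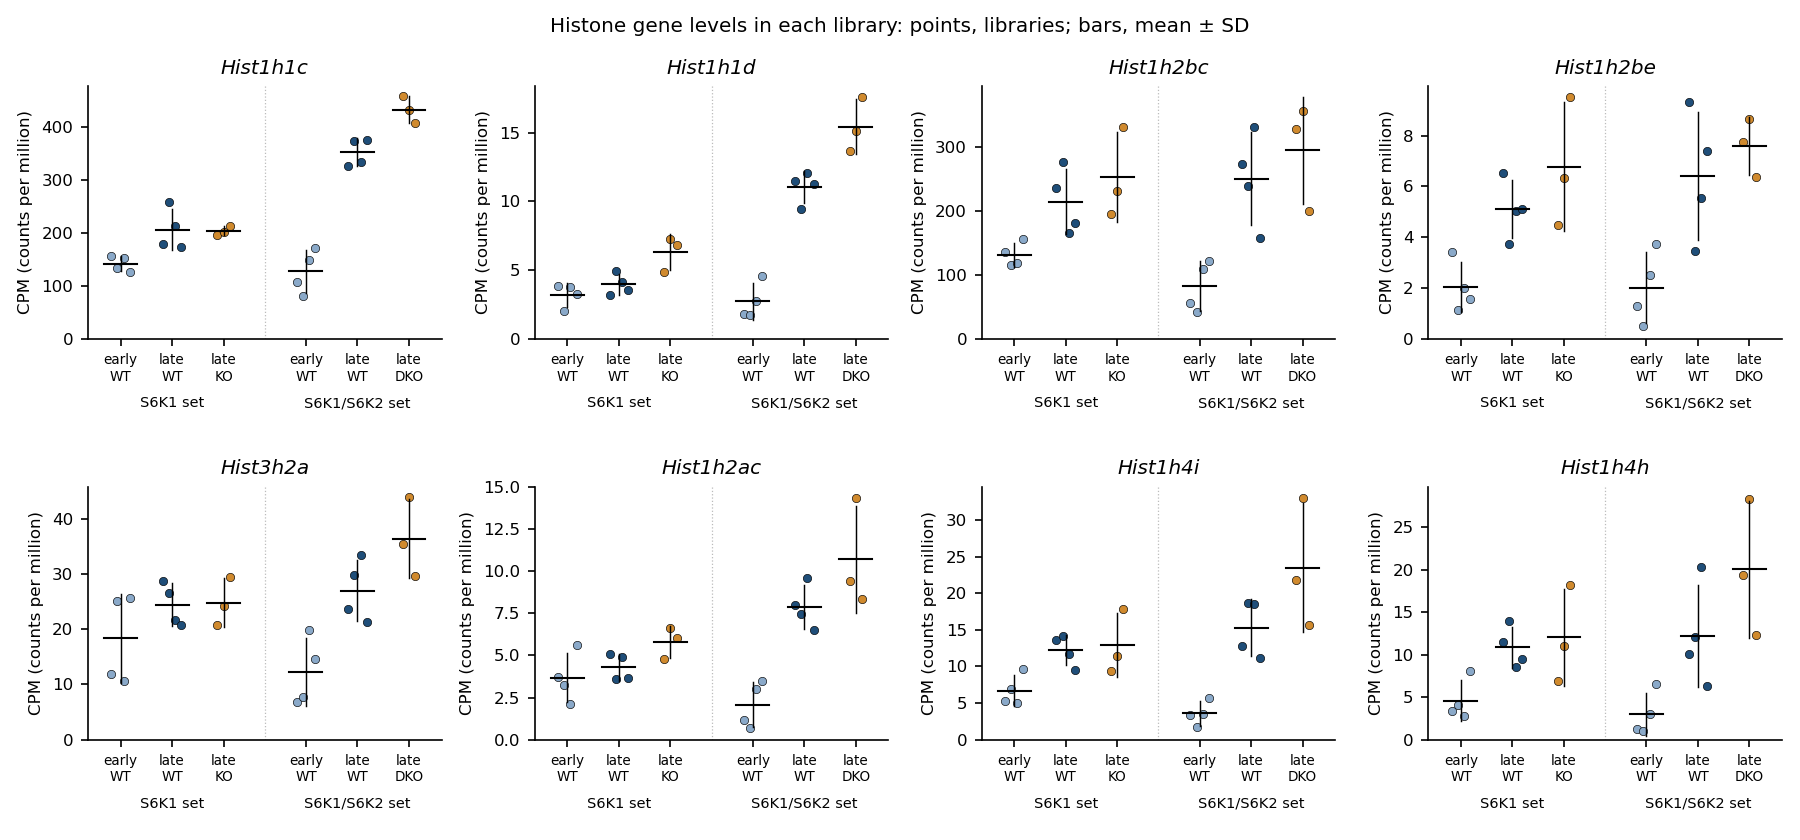
Levels of 8 histone genes in CPM (y axis, linear from 0) in each library of the 6 groups (x axis), with points for libraries, horizontal bars for means and vertical bars for SD (n = 3 or 4). In the *S6K1/S6K2* set the late WT points lie above the early WT points for *Hist1h1c*, *Hist1h1d*, *Hist1h2bc*, *Hist3h2a*, *Hist1h2ac* and *Hist1h4i*, and late DKO points lie above late WT points only for *Hist1h1c* and *Hist1h1d*.

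In the *S6K1* set, fewer histone genes were called and the changes of most members were smaller. The H2B gene *Hist1h2be* and the linker histone *Hist1h1c* rose in late against early WT MEFs, and no member fell. These 2 of the 17 tested members stand beside 7.20% of all genes tested that passed as higher. The median log2 fold change was 0.56 (range -0.82 to 1.36) over the members and -0.0011 over all genes tested.

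*Hist1h1c* measured 156, 133, 152 and 126 CPM in early and 178, 258, 213 and 174 CPM in late WT libraries. The groups did not overlap, and the fold was 1.48 (log2 fold change 0.56, SE 0.15, adjusted P = 0.0284), with means of 142 ± 14.3 and 206 ± 39.1 CPM (SD, n = 4 each). *Hist1h2be* measured 3.41, 1.13, 2 and 1.58 CPM in early and 6.52, 3.74, 5.03 and 5.12 CPM in late WT libraries. Each late value was above each early value, with a fold of 2.57 (log2 fold change 1.36, SE 0.34, adjusted P = 0.0229).

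*Hist1h2bc* and *Hist1h4h* also did not overlap between the groups, so that 4 members were fully higher in late MEFs, against 8.10% of all genes, but both missed the threshold. *Hist1h2bc* measured 136, 115, 119 and 156 CPM in early and 236, 277, 166 and 181 CPM in late WT libraries (log2 fold change 0.72, SE 0.24, adjusted P = 0.0741). *Hist1h4h* measured 3.41, 4.11, 2.79 and 8.11 CPM in early and 11.5, 14.0, 8.51 and 9.49 CPM in late WT libraries (log2 fold change 1.22, SE 0.42, adjusted P = 0.0756). Its early replicate 4 came close to the lowest late library.

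*Hist1h4i* measured 5.26, 6.88, 5.04 and 9.61 CPM in early and 13.6, 14.1, 11.7 and 9.49 CPM in late WT libraries, overlapping in 1 pair of values (log2 fold change 0.86, SE 0.31, adjusted P = 0.0906). *Hist3h2a* measured 12, 25, 10.6 and 25.6 CPM in early and 28.7, 26.5, 21.6 and 20.8 CPM in late WT libraries, with 2 early libraries between the late ones (log2 fold change 0.40, SE 0.33, adjusted P = 0.47). *Hist1h1d* measured 3.87, 1.99, 3.76 and 3.23 CPM in early and 3.18, 4.96, 4.13 and 3.55 CPM in late WT libraries (log2 fold change 0.33, SE 0.26, adjusted P = 0.462). Its groups overlapped widely, as did those of *Hist1h2ac* (log2 fold change 0.21, adjusted P = 0.716).

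Calls in this set rested on single libraries. No member passed without early WT replicate 2 or 3, and 1 passed without late WT replicate 1, 2 or 3. Without early WT replicate 4, 4 other members passed (*Hist1h4h*, *Hist1h4i*, *Hist2h2be* and *Hist2h3c2*) and *Hist1h1c* and *Hist1h2be* did not.

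The effect of passage was compared between the sets as an interaction over all 22 libraries. It differed for *Hist1h1d*, whose log2 fold change was larger by 1.77 (SE 0.39, adjusted P = 0.0342) in the *S6K1/S6K2* set, 1 of 17 members against 0.714% of all genes tested. For *Hist1h1c* the difference was 0.98 (SE 0.26, adjusted P = 0.116), for *Hist1h2ac* 1.78 (SE 0.56, adjusted P = 0.223) and for *Hist1h4i* 1.32 (SE 0.50, adjusted P = 0.365). Of the 17 members, 16 had a positive difference, with a median of 0.90, against 49.9% of all genes tested. Members were measured in the same libraries, so their signs are not separate observations. The contrast includes early WT replicates 1 and 2 of the *S6K1/S6K2* set, where the histone sum was lowest. The call for *Hist1h1d* held in 15 of 28 alternative fits, in which the difference ranged from 1.58 to 2.17. It was lost with the Y-linked genes as a covariate (1.80, adjusted P = 0.053) and on leaving out any 1 of 12 libraries: replicates 1, 3 and 4 of early and of late WT MEFs in the *S6K1* set, and replicates 1, 2 and 3 of early and 1, 3 and 4 of late WT MEFs in the *S6K1/S6K2* set. The sets differ in breeding and set-up as well as in the genotypes that they contain, and these cannot be told apart.

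**Figure D3:**
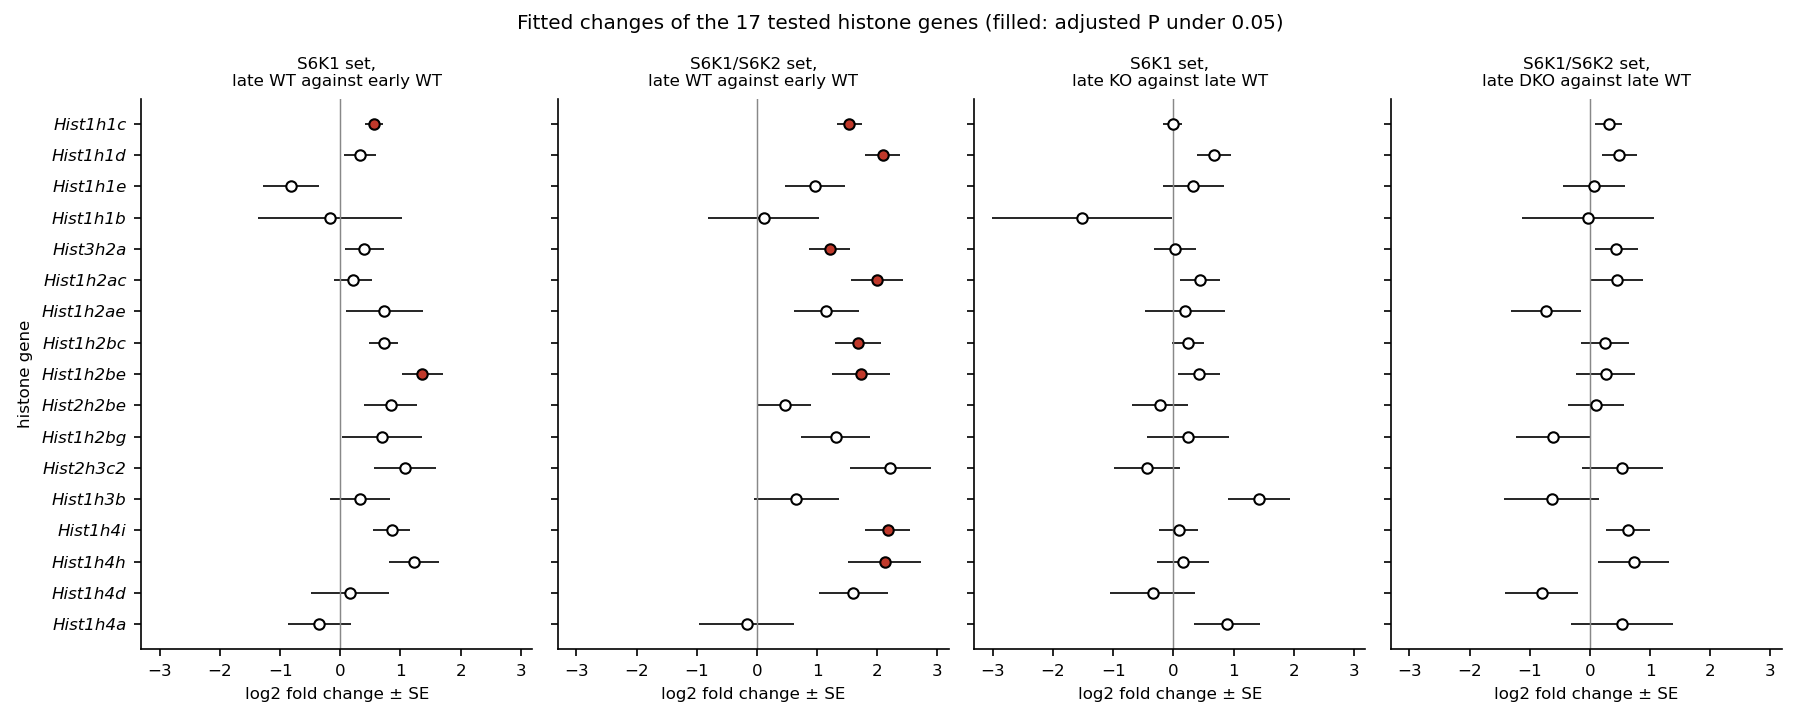
Fitted log2 fold changes (x axis) with SE for the 17 tested histone genes (y axis, ordered by type) in the 4 comparisons, with filled points for an adjusted P under 0.05. Filled points number 2 in the passage comparison of the *S6K1* set, 8 in that of the *S6K1/S6K2* set and 0 in both genotype comparisons.

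Loss of S6K1 alone gave no called change of a histone gene. In late KO against late WT MEFs, 0 of 17 members passed with edgeR and 0 with DESeq2, and 2 had an unadjusted P under 0.05 with edgeR, beside 10.5% of all genes tested. Only 0.0400% of all genes tested passed in this comparison, which shares its late WT libraries with the passage comparison of the *S6K1* set. *Hist1h1c* measured 197, 201 and 214 CPM in the 3 KO libraries, within the range of the late WT libraries (log2 fold change -0.01, SE 0.16, adjusted P = 0.987). *Hist1h2bc* measured 195, 232 and 332 CPM (log2 fold change 0.24, SE 0.26, adjusted P = 0.788), with 1 KO library above all late WT libraries.

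KO replicate 3 was the highest of the 3 libraries for *Hist1h1c* and *Hist1h2bc*, and also for *Hist3h2a*, *Hist1h4i*, *Hist1h4h* and *Hist1h2be*. *Hist3h2a* measured 20.8, 24.1 and 29.5 CPM (log2 fold change 0.03, SE 0.35), *Hist1h4i* 9.39, 11.4 and 17.8 CPM (0.09, SE 0.33) and *Hist1h4h* 6.94, 11 and 18.2 CPM (0.16, SE 0.43). *Hist1h2be* measured 4.49, 6.33 and 9.51 CPM (log2 fold change 0.43, SE 0.35). None of these groups separated from late WT.

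The 2 members with an unadjusted P under 0.05 were higher in KO MEFs. The H3 gene *Hist1h3b* measured 2.8, 2.48 and 3.61 CPM in KO and 1.74, 0.686, 0.959 and 1.07 CPM in late WT libraries (log2 fold change 1.42, SE 0.51, adjusted P = 0.356). It was the only member whose KO libraries all exceeded the late WT libraries, beside 5.31% of all genes tested. *Hist1h1d* measured 4.84, 7.26 and 6.80 CPM in KO libraries, overlapping late WT (log2 fold change 0.67, SE 0.28, adjusted P = 0.423). With the Y-linked genes as a covariate, the log2 fold changes in KO MEFs were 0.59 for *Hist1h2bc*, 0.68 for *Hist3h2a*, 0.51 for *Hist1h4i*, 0.84 for *Hist1h4h* and 0.0009 for *Hist1h1c*, and 0 members passed.

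No histone gene passed in late DKO against late WT MEFs either. Of the 17 members, 0 passed with edgeR, 0 with DESeq2 and 0 had an unadjusted P under 0.05, while 4.53% of all genes tested passed and 18.1% had an unadjusted P under 0.05. This comparison shares its late WT libraries with the passage comparison of its set. The linker histones *Hist1h1c* and *Hist1h1d* were the only members whose DKO libraries all exceeded the late WT libraries, beside 4.98% of all genes tested. *Hist1h1c* measured 458, 432 and 406 CPM in DKO libraries (log2 fold change 0.31, SE 0.22, adjusted P = 0.508), and *Hist1h1d* measured 13.6, 15.1 and 17.6 CPM (log2 fold change 0.49, SE 0.29, adjusted P = 0.419).

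For the core histones the DKO libraries overlapped late WT. *Hist1h2bc* measured 328, 357 and 200 CPM (log2 fold change 0.26, SE 0.40), and *Hist3h2a* 35.4, 43.8 and 29.6 CPM (0.44, SE 0.35). *Hist1h4i* measured 21.9, 33.0 and 15.7 CPM (log2 fold change 0.64, SE 0.37) and *Hist1h4h* 19.4, 28.4 and 12.3 CPM (0.73, SE 0.60). DKO replicate 3 was the lowest and replicate 2 the highest of the 3 libraries for each of these 4 genes. *Hist1h2be* measured 7.74, 8.66 and 6.36 CPM (log2 fold change 0.26, SE 0.49). With 3 against 4 libraries, none of these changes passed, and what size of change could have passed was not tested.

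The effects of losing S6K1 in one set and both kinases in the other were not called different for any member. As an interaction, 0 of 17 passed with edgeR and 0 with DESeq2, against 0.00667% of all genes tested, and 1 had an unadjusted P under 0.05, against 10.9%. That member was *Hist1h3b*, with a difference of -2.05 (SE 0.98, adjusted P = 0.454): its DKO libraries held 1.13, 0.559 and 1.18 CPM and their late WT controls 1.81, 1.12, 1.05 and 2.08 CPM.

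Summed over all 58 members, histone genes held 303 to 360 CPM in early WT, 429 to 618 in late WT and 458 to 655 in late KO libraries of the *S6K1* set. They held 143 to 348 (early WT), 616 to 784 (late WT) and 718 to 957 CPM (late DKO) in the *S6K1/S6K2* set. In each set every late WT library was above every early one. The sum follows *Hist1h1c* and *Hist1h2bc*, but without them it was again higher in late than in early WT libraries of the *S6K1/S6K2* set (83.3 to 120 against 19.1 to 54.5 CPM), and overlapped in the *S6K1* set (74.6 to 91.0 against 39.3 to 77.4 CPM). For the 41 members below the filter the sum was 3.70 to 6.23 and 2.40 to 5.86 CPM in early and late WT libraries of the *S6K1* set, and 1.85 to 3.93 and 2.17 to 3.93 CPM in those of the *S6K1/S6K2* set, with overlap in both.

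**Figure D4:**
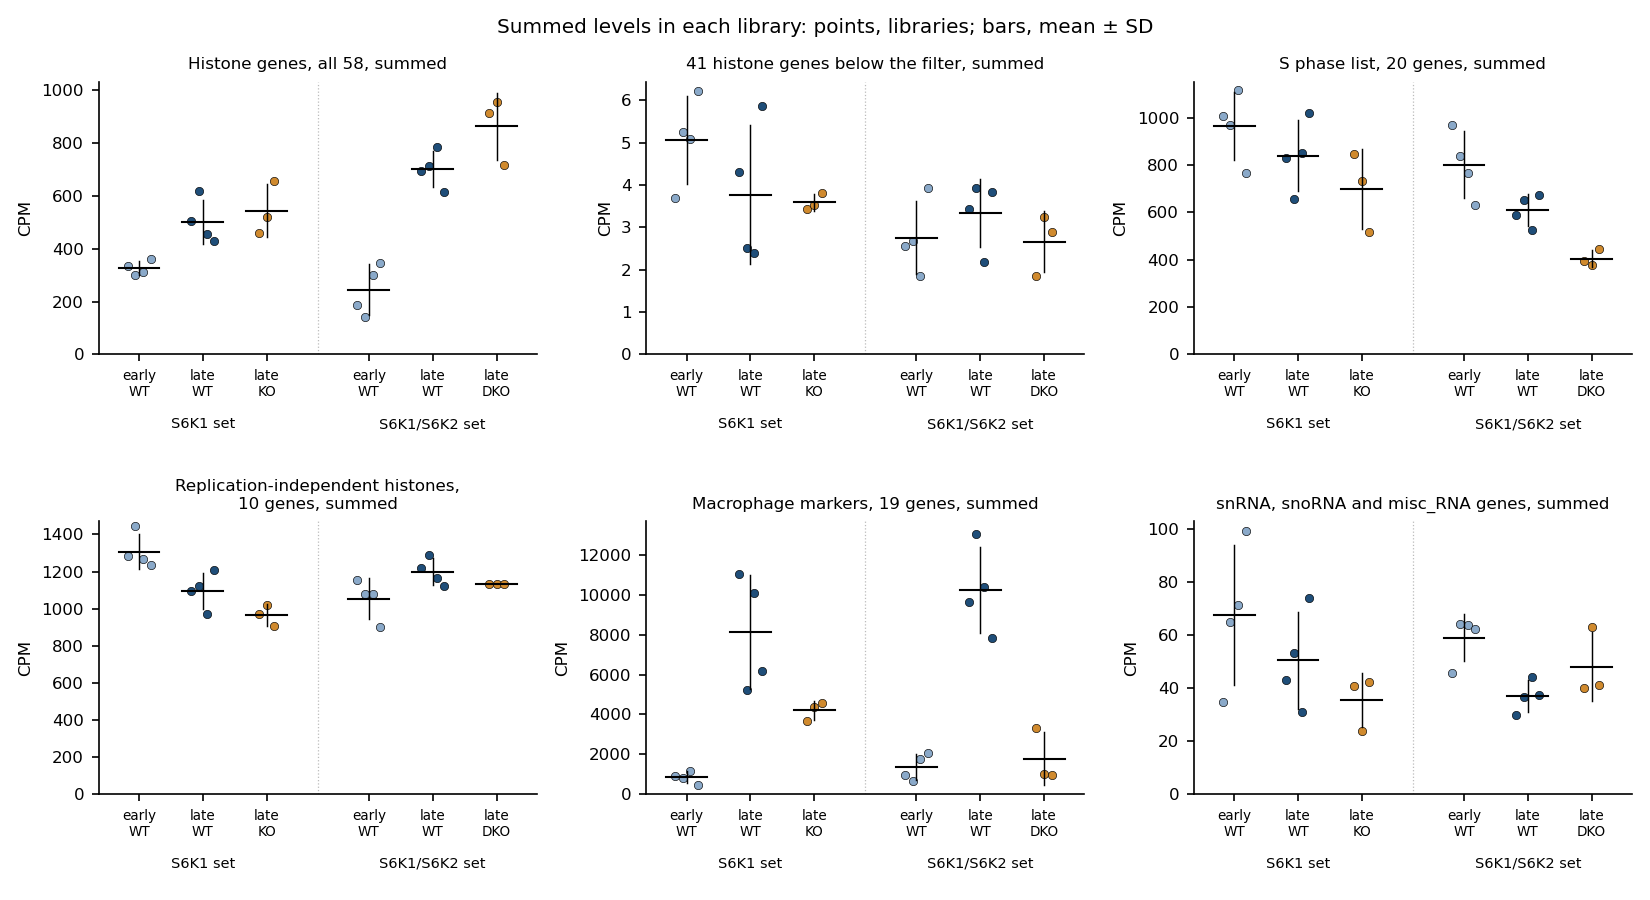
Summed CPM (y axes, linear from 0) in each library of the 6 groups (x axis), for all 58 histone genes, the 41 below the filter, 20 S phase genes, 10 replication-independent histones, 19 macrophage markers and 2714 small RNA genes, with mean and SD. Histone sums rise from 143 to 348 CPM in early WT to 616 to 784 CPM in late WT libraries of the *S6K1/S6K2* set, while the S phase sums are 631 to 972 and 528 to 674 CPM.

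The S phase list holds 20 genes of DNA replication and proliferation, which are active when stem-loop histone mRNA is normally made. In late against early WT MEFs of the *S6K1* set 0 passed with edgeR, 1 was lower with DESeq2, and 2 had an unadjusted P under 0.05, both lower (median log2 fold change 0.03). With passage in the *S6K1/S6K2* set, 1 rose and 4 fell (median log2 fold change -0.31). The gene that rose was *E2f1*, a transcription factor of S phase entry (log2 fold change 0.43, adjusted P = 0.0483). Those that fell were *Mki67*, a proliferation marker (-0.92, adjusted P = 0.00939), *Top2a*, a topoisomerase (-0.90, adjusted P = 0.00988), *Ccna2*, a cyclin (-0.72, adjusted P = 0.019), and *Tyms*, thymidylate synthase (-0.60, adjusted P = 0.0226). In late DKO against late WT MEFs 9 fell and none rose (median log2 fold change -0.68), with *Cdt1*, a replication licensing factor, at -1.40 (adjusted P = 0.00374). In late KO MEFs 0 passed with edgeR and 0 with DESeq2, and 2 were lower at an unadjusted P under 0.05 (median log2 fold change -0.31).

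The replication-independent histones, most of whose genes give ordinary polyadenylated mRNA (*H2afx* is known to give a stem-loop mRNA as well), had few calls and in both directions. Of 10 measured members, *H2afy2*, a macroH2A gene, fell by 0.80 on the log2 scale (adjusted P = 0.0262) and *H3f3b*, a gene for H3.3, fell by 0.51 (adjusted P = 0.0407) with passage in the *S6K1* set. *H3f3b* rose with passage in the *S6K1/S6K2* set, by 0.52 (adjusted P = 0.0324), and *Cenpa*, the centromeric H3, fell by 0.67 (adjusted P = 0.012). The difference between the sets for *H3f3b* was 1.04 on the log2 scale (adjusted P = 0.00921). In late DKO against late WT MEFs *Cenpa* fell by 0.71 (adjusted P = 0.0306) and *H2afz* by 0.66 (adjusted P = 0.0431). In late KO MEFs 0 passed with edgeR and 0 with DESeq2, and 2 were lower at an unadjusted P under 0.05.

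The genes for histone transcription and mRNA 3′ end formation, among them *Slbp* and the histone-locus factor *Npat*, showed few calls. Of the 14, *Casp8ap2*, a protein of the histone locus body, fell by 1.00 on the log2 scale with passage in the *S6K1* set (adjusted P = 0.0181), and 13 did not pass. With edgeR 0 passed in the passage comparison of the *S6K1/S6K2* set (3 at an unadjusted P under 0.05, 0 with DESeq2), 0 in late DKO (2 and 2) and 0 in late KO MEFs (0 and 0). Among 10 genes of histone supply, *Atrx*, a chromatin remodeller, fell by 1.04 with passage in the *S6K1* set (adjusted P = 0.0369). The histone chaperones *Asf1b* and *Nasp* fell by 1.81 (adjusted P = 0.00242) and 0.56 (adjusted P = 0.0254) in late DKO MEFs. For this list 0 passed in late KO MEFs (2 at an unadjusted P under 0.05, 0 with DESeq2) and 0 with passage in the *S6K1/S6K2* set (3 and 1).

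Other measures that could move with the histone levels are given beside them. Of the 19 macrophage markers, 19 rose with passage in the *S6K1* set (median log2 fold change 2.97) and 18 in the *S6K1/S6K2* set (median 2.51). In late DKO MEFs 16 fell (median -2.41). In late KO MEFs 0 markers passed with edgeR and 5 were lower with DESeq2, and 15 were lower at an unadjusted P under 0.05. RNA that normally lacks a poly(A) tail was summed over 2714 small RNA genes. This sum was meant as a measure of carry-over through poly(A) selection, but whether it measures that was not tested. It held 34.6 to 99.3, 31.1 to 74.1 and 23.6 to 42.3 CPM in early WT, late WT and late KO libraries of the *S6K1* set, and 45.8 to 64.1, 29.8 to 44.3 and 39.9 to 63.1 CPM for the matching groups of the *S6K1/S6K2* set. In the latter set this sum was lower in every late WT than in every early WT library. The 2 RNAs of the planned list that had a row did not follow it. They summed to 0.122 to 0.522 CPM in early and 0.0702 to 1.05 CPM in late WT libraries of that set, close to the level that a count of 0 allows. The 1 tested had a log2 fold change with passage of -0.38 in the *S6K1* set and 1.28 in the *S6K1/S6K2* set, and did not pass. The part of cell composition and of carry-over in the histone levels was not tested.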

How the data were processed

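The 22 MEF libraries were made with a stranded mRNA kit and sequenced as single-end 50-base reads. The deposited values are raw counts per gene as the authors made them, with no normalization. The paper's methods name CASAVA, TopHat to mm9 and HTSeq, whereas the submitters' processing notes name CASAVA, STAR 2.7.1a, DESeq2 1.28.1 and mm10. The strand setting of counting is not given in the sources used here. Of 55401 identifiers, 32589 had a symbol (96.98% of counts), and 22812 (41.2%) had no entry in GENCODE vM1, which supplied mm9 positions.

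The members and lists were chosen with earlier results of these data known. Counts were tested in R 4.3.3 with edgeR 4.0.16 (TMM, quasi-likelihood F test) on the 14991 genes with 10 or more counts in 3 or more libraries, fitting the 3 groups of 1 set together, or all 22 libraries for interactions, and Benjamini-Hochberg adjustment over all genes tested (threshold 0.05). SE is the log2 fold change divided by the square root of F. CPM are counts per 1000000 counts of a library. No pair among 30 of the same group differed by as little as sampling noise (chi-square per degree of freedom 20.6 to 265.7). DESeq2 1.42.0, other scalings, filters, sample choices, a Y-linked covariate and leaving out each library were alternatives. The fitting script was tested on simulated data.

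Described in full were the 5 members of highest mean CPM and the 3 largest rises among those that passed in each comparison. Members of at least 1 CPM or called could be named, as could up to 4 genes of each other list (those that passed, by smallest P). *Hist1h1b*, *Hist1h2af*, *Hist1h2aj*, *Hist3h2bb-ps*, *H2afx*, *Slbp* and *Npat* were named after the values were seen. So were *Hist1h2al*, *Hist1h4d*, *Hist1h2bq*, *Hist1h2br*, *Hist1h2ba* and *Hist1h2aa*. Only 2 of 13 listed RNAs without a poly(A) tail had a row, with 1 tested and not passing, so the small RNA sum over snRNA, snoRNA and misc_RNA genes was added after the data were seen. Of 11 replication-independent histones, 10 had a row.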

Additional observations from a re-analysis of the deposited data

Results flagged for a closer look

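In 68 groups of 4 libraries examined, 2 held a library far from the others, and chance alone flags about 1 in 20 such groups. The H3 member *Hist2h3c2* stood at 9.91 CPM in early WT replicate 4 of the *S6K1* set, while the other 3 early WT libraries lay between 1.94 and 3.12 CPM. The small RNA genes summed to 45.8 CPM in early WT replicate 1 of the *S6K1/S6K2* set, below the 62.4 to 64.1 CPM of the other 3 libraries.

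The linker histone gene *Hist1h1d* differed between the sets in its change with passage, by 1.77 on the log2 scale (interaction, adjusted P = 0.0342), as described above.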

How the results depend on the processing

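No paired analysis was possible because the labels do not say which early and late libraries, if any, came from the same MEFs. Histone genes that passed with passage in the *S6K1* set numbered 2, but 4 with DESeq2 or with scaling by library totals (added after the data were seen) and 1 without the filter, with only the 2 groups in the fit or with all 22 libraries. Leaving out 1 library gave 0 to 4. In the *S6K1/S6K2* set 8 passed, but 4 without the filter, and 5 with Y-linked genes as a covariate or only the 2 groups in the fit. Leaving out 1 library gave 4 to 9. For the difference between the sets in passage, 1 passed, but 2 with DESeq2, 0 with the covariate and 0 to 2 on leaving out 1 library. In both genotype comparisons and their difference, 0 passed in each alternative. The share of all genes tested that passed in each alternative is not given here. These counts therefore do not tell a change of the members from a change in how many genes passed. *Hist1h1c*, *Hist1h1d*, *Hist1h2ac* and *Hist1h4i* passed with passage in the *S6K1/S6K2* set in 19 of 19 alternatives, *Hist1h2bc* in 16, *Hist3h2a* in 11, *Hist1h4h* in 10 and *Hist1h2be* in 8. In the *S6K1* set *Hist1h2be* passed in 15 and *Hist1h1c* in 11 of 19. No called value changed sign. The causes of these changes were not tested. Genes with few counts limit what could be called: 41 of 58 members were below the filter.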
